A study of Mus musculus with 3 samples.

Results

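Control cells of the mouse fibroblast line L929 differed more than 4-fold among themselves in the summed RNA of 5 genes that respond to low oxygen. These 5 genes chose the cells, and the cells at the ends of that range are described here. Each of 9 control cells was ranked by a hypoxia score, the summed CPM of Car9, Bnip3, Ndrg1, Ero1l and Egln3, where CPM has its usual sense of a gene's count relative to the cell's total. The 4 cells with the highest score (control cells 4, 3, 10 and 2) were set against the 4 with the lowest (control cells 9, 8, 6 and 7), and control cell 5 lay between them. These 8 cells are part of a CBTi-seq table of 20 columns, 10 named knock and 10 named control, which is 1 of the 3 samples of a study of Rrm2 knockdown. Rrm2 is the small subunit of ribonucleotide reductase. Control cell 1 was left out of the ranking because it held only 41570 counts. The columns are called cells after the protocol text, by which single trypsinized cells were drawn into a capillary, lysed, copied into cDNA with an oligo dT primer and template switching, and amplified by PCR. All cells in the comparison were control cells of the same line, with no treatment, oxygen level or culture condition to tell them apart in the labels. The sources used here do not give how the knockdown was made.

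The hypoxia-inducible factors HIF1 and HIF2 are pairs of an oxygen-regulated alpha subunit and the constant partner ARNT. In oxygen, prolyl hydroxylases of the EGLN family modify the alpha subunit, VHL then binds it, and it is degraded. When oxygen is scarce the alpha subunit persists, binds DNA at a short core sequence and raises transcription of genes for glucose use, blood vessel growth, mitochondrial turnover and matrix hydroxylation. The score genes belong to this response. Car9 encodes a cell surface carbonic anhydrase that regulates pH, Bnip3 a mitophagy receptor, Ndrg1 a stress-responsive cytoplasmic protein, Ero1l an oxidase of the endoplasmic reticulum, and Egln3 a hydroxylase that feeds back on HIF.

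Because all cells belong to 1 sample and were chosen by their own RNA, no test, p-value or error over replicates can be given, and every difference between high-score and low-score cells is a description of these 8 cells. Ratios are between summed counts of the groups, and the 95% intervals beside them cover counting error only. They leave out the spread between cells, for which each cell's value is given.

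The base sequence before the start of 4 genes is shown because the HIF core is the sequence feature that links the score genes to other members of the response. Car9 and Bnip3 chose the cells, and Ankrd37 and Hk2 are other HIF targets with a ratio above 2-fold. Each is the 250 bases upstream of the RefSeq start (GRCm38.p6), read 5′ to 3′ on the strand of the gene, with ACGTG and GCGTG on either strand in capitals. On the opposite strand they read CACGT and CACGC, and neighbouring matches can overlap.
Car9 (chr4:43506776-43507025, plus strand): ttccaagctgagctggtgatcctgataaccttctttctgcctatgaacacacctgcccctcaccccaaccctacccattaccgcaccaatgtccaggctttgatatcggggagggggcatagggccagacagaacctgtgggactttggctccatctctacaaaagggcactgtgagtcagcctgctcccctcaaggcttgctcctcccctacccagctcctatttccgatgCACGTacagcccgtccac
Bnip3 (chr7:138909507-138909756, minus strand): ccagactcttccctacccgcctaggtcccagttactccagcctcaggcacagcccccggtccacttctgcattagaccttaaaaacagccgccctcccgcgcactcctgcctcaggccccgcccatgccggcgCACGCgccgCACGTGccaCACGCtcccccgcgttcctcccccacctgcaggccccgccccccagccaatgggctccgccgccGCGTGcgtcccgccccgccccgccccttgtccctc
Ankrd37 (chr8:45999851-46000100, minus strand): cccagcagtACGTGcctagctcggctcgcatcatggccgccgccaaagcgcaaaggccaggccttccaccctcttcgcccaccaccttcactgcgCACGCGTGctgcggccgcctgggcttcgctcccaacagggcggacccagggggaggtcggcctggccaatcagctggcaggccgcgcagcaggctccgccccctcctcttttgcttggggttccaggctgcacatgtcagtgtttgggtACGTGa
Hk2 (chr6:82774455-82774704, minus strand): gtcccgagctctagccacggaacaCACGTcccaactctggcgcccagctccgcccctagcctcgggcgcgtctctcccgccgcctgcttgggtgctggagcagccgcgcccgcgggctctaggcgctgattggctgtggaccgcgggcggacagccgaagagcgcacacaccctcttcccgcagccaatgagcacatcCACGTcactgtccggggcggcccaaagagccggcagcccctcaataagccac

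Of the 5 score genes, 4 had a promoter in the RefSeq table (all but Ndrg1), and each of the 4 held ACGTG. The other HIF targets described below had 46 promoters, from 30 of the 37 genes. Of these promoters 39.1% held ACGTG and 69.6% held at least 1 of the 2 motifs. Among 8328 promoters of genes at 20 CPM or more the shares were 23.7% and 59.2%, and among all 32851 promoters of that length they were 16.6% and 38.6%. The 37 promoters of genes for G2 and M phase, the last stages of the cell cycle, had 29.7% and 64.9%. Ankrd37 and Hk2, printed above, are examples that hold ACGTG. Of other targets with a ratio above 2-fold, Fam162a and Ddit4 also held it, but Aldoc did not. Vegfa held it in 1 promoter, whereas that at 46032378 to 46032627 held neither motif. Ndufa4l2 had no promoter in the RefSeq table. A match is a run of letters and not a measured binding site.

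The score was 3595 CPM in control cell 4, 2314 in control cell 3, 1874 in control cell 10 and 1675 in control cell 2. It was 1537 CPM in the middle cell, and 1366, 1320, 871 and 780 CPM in control cells 9, 8, 6 and 7. The last high-score cell (1675 CPM), the middle cell (1537 CPM) and the first low-score cell (1366 CPM) lay close together, whereas control cell 4 stood well above the rest. Car9 alone was 648, 433, 349 and 151 CPM in the high-score cells, against 285, 185, 25.2 and 72.9 CPM in the low-score cells. Bnip3 was 894, 527, 455 and 380 CPM in the high-score cells, against 396, 284, 147 and 219 CPM in the low-score cells. Egln3 did not follow the others, with 358, 506, 436 and 541 CPM in the high-score cells and 235, 522, 522 and 179 CPM in the low-score cells. These values chose the groups and are not a result. The same 4 and 4 cells were found with any one of Car9, Bnip3, Ndrg1 or Ero1l left out of the score, whereas without Egln3 the middle cell took the place of control cell 2.

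**Figure D1:**
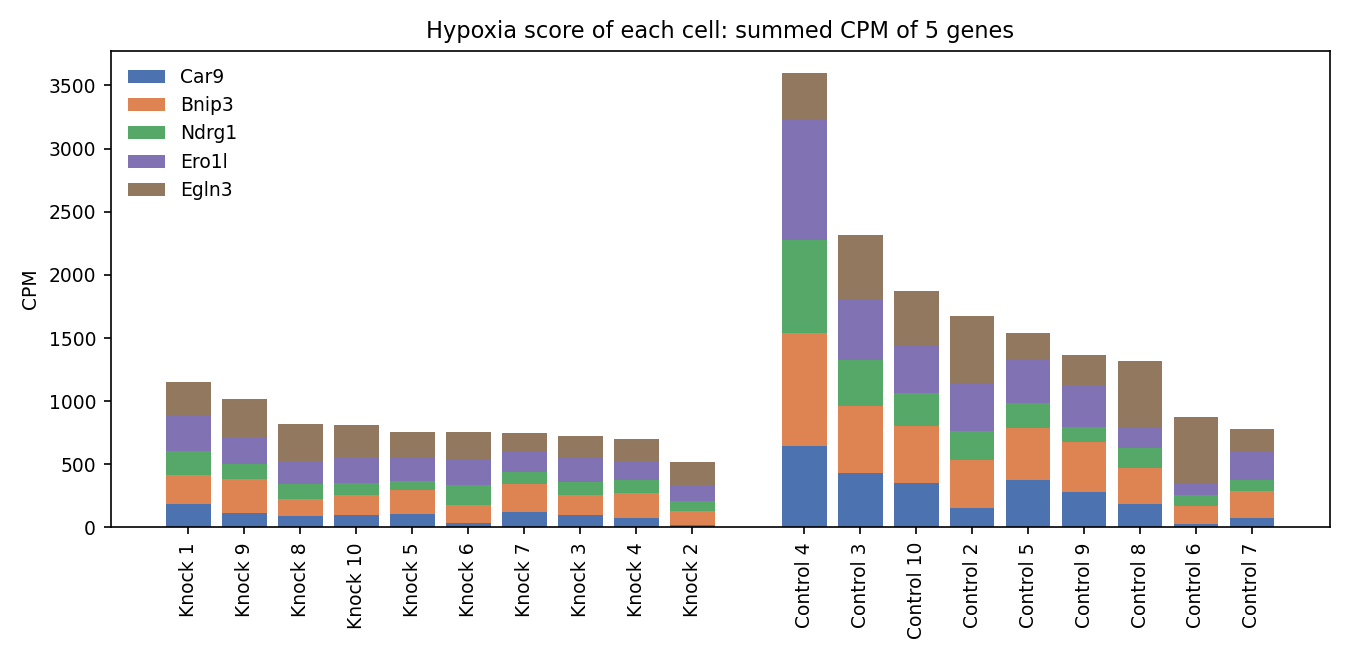
Hypoxia score of each cell (vertical axis, CPM), stacked by its 5 genes, for 10 knock cells on the left and 9 control cells on the right, each ordered by score. Knock cells lie between 518 and 1155 CPM and control cells between 780 and 3595 CPM; the first 4 control bars are the high-score cells and the last 4 the low-score cells.

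The high-score cells held 276231 to 508312 counts and the low-score cells 237639 to 846819. Control cell 9 was the deepest and gave 48.9% of the summed counts of the low group, so its levels weigh most there. The name of the deposited table refers to UMIs, short random tags that mark single molecules, and the highest count of any gene in any cell was 638. A correction for UMI collisions assumed 1024 possible tags, the next power of 4. It gave 113 genes at least 2-fold higher and 133 at least 2-fold lower, close to the uncorrected 105 and 138 given below. These numbers take all genes together and do not test the most abundant ones. The highest count was 534 in control cell 6 (237639 counts) and 623 in control cell 9 (846819 counts), so it rose far less than depth. Whether lower CPM of abundant genes in control cell 9 follows from its depth was not tested. The Spearman correlation of score with total counts was 0.25 over the 9 control cells, which share 1 library. After thinning to 153051 counts per cell, 10853 to 12188 genes were detected in high-score cells and 11227 to 11653 in low-score cells. Mitochondrially encoded genes took 0.731% to 1.17% of the counts in high-score cells and 0.477% to 1.12% in low-score cells, with the lowest share in control cell 9. Fibroblast markers were mixed. Vim was 834 to 1361 CPM in high-score cells and 657 to 1250 CPM in low-score cells, and Lgals1, Sparc and S100a4 were also abundant in both groups. Col3a1 was at 0 in all 8 cells but control cell 2 (24.7 CPM). Pdgfra was 1.97 to 32.6 CPM in high-score cells and 7.09 to 25.2 CPM in low-score cells, while Thy1, Dcn and Lum have no row in the table. Of 13 fibroblast markers 8 were at 20 CPM or more, with a median log2 ratio of 0.06. No epithelial, endothelial, neural or erythroid marker reached 20 CPM, and of the muscle and adipocyte markers Des (0.20) and Fabp4 (0.13) did.

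Rrm2, the gene targeted in the knock cells, was 356 to 476 CPM in the high-score control cells and 439 to 652 CPM in the low-score ones (log2 ratio -0.34, interval -0.50 to -0.19). The 2 ranges overlap. In the 10 knock cells it was 283 to 489 CPM, which overlaps both. The gene lies on chromosome 12 (24708241 to 24714146, plus strand, GRCm38) and overlaps no other annotated gene.

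The HIF targets outside the score were, as a list, higher in the high-score cells. Of 56 genes listed, 52 have a row and 37 averaged at least 20 CPM. Of these 37, 33 had a log2 ratio above 0 and 4 below, with a median of 0.50, whereas 45.6% of all 8493 genes at that level lay above 0 and their median was -0.05. The list had 7 genes at least 2-fold higher in high-score cells, beside 4.39% of all genes, and none at least 2-fold lower, beside 4.69%. None of the 37 was free of overlap between the 4 high-score and 4 low-score cells, beside 1.8% of all genes in the higher direction. Their summed level was 7809, 7279, 5321 and 4623 CPM in control cells 4, 3, 10 and 2, against 4443, 4564, 4469 and 3438 CPM in control cells 9, 8, 6 and 7. All 4 high-score sums lay above the low-score sums, but that of control cell 2 by little, and the middle cell had 5497 CPM. Without control cell 9 the median was 0.75, with 11 genes at least 2-fold higher. Leaving out each other cell gave 0.34 (without control cell 3) to 0.62 (without control cell 2).

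Among these targets the widest ratio was that of Ndufa4l2, whose product replaces a subunit of a respiratory chain complex in hypoxic cells. It was 427, 291, 298 and 83.4 CPM in the high-score cells, against 68.5, 83.0, 101 and 18.2 CPM in the low-score cells (log2 ratio 2.00, interval 1.70 to 2.31). Control cell 2 lay within the low-score range. Shmt2 overlaps Ndufa4l2 on the opposite strand of chromosome 10, and since the sources used here do not give whether counting used strand, reads from the shared stretch may belong to either. Vegfa, the main growth factor for blood vessels, was 127, 246, 78.5 and 111 CPM in high-score cells, against 14.2, 93.7, 88.4 and 21.9 CPM in low-score cells (log2 ratio 1.83, interval 1.45 to 2.23). Its low-score cells fell into a pair near 90 CPM and a pair near 20 CPM. Vegfa lies on chromosome 17 (46016993 to 46032369, minus strand) and overlaps no other gene.

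Mitochondrial and stress genes of the response differed by which cell was high. Higd1a, a small protein of the inner mitochondrial membrane, was 1133, 677, 596 and 374 CPM in high-score cells, against 353, 437, 417 and 325 CPM in low-score cells (log2 ratio 0.85, interval 0.70 to 0.99). Bnip3l, the mitophagy receptor related to Bnip3, was 532, 411, 279 and 253 CPM in high-score cells, against 243, 187, 257 and 190 CPM in low-score cells (0.71, interval 0.51 to 0.90). In both genes 3 high-score cells lay above all low-score cells and control cell 2 did not. Fam162a, a mitochondrial protein linked to hypoxic cell death, was 525, 151, 116 and 92.7 CPM in high-score cells, against 111, 42.9, 63.1 and 58.3 CPM in low-score cells (1.29, interval 1.0 to 1.59). Ddit4, which restrains the growth kinase mTORC1, was 21.7, 238, 48.7 and 108 CPM in high-score cells, against 46.0, 42.9, 8.42 and 36.5 CPM in low-score cells (1.66, interval 1.24 to 2.08). The level of Ddit4 in control cell 4, the cell with the highest score, was below 3 of the 4 low-score cells, and without control cell 3 its ratio was 0.65. Ankrd37, an ankyrin repeat protein whose promoter is printed above, was 18.1, 55.1, 32.5 and 71.1 CPM in high-score cells, against 3.54, 34.8, 12.6 and 25.5 CPM in low-score cells (1.62, interval 0.95 to 2.33). Ankrd37 passed the limit of 20 CPM only through the high-score cells.

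The 37 targets reached their highest level among the 9 control cells mostly in the 2 cells with the highest scores, 15 (40.5%) in control cell 4, beside 13.5% of all genes at 20 CPM or more, and 12 (32.4%) in control cell 3, beside 17.2%. The 2 cells differed from each other in the targets about as often as in other genes. Control cell 4 had at least 2-fold the level of control cell 3 in 7 targets (18.9%), beside 15.7% of all genes, and control cell 3 at least 2-fold that of control cell 4 in 9 (24.3%), beside 19.4%. Aldoc, a form of aldolase, and Fam162a were among the 7, and Hk2, Ddit4 and Adm, the vessel-relaxing peptide adrenomedullin, among the 9. Adm was 141, 409, 176 and 297 CPM in high-score cells, against 77.9, 324, 282 and 106 CPM in low-score cells (0.76, interval 0.53 to 0.98). Above all 4 low-score cells lay 19 targets (51.4%) in control cell 4, beside 21.2% of all genes, and 24 (64.9%) in control cell 3, beside 26%. In control cell 10 there were 13 (35.1%), beside 13.9%, and in control cell 2 there were 7 (18.9%), a share near the 17.3% of all genes. The targets with ratios below 0 were Errfi1 (-0.03), a feedback inhibitor of EGF receptor signalling, Cited2 (-0.41), which competes with HIF1 for its coactivator, the histone demethylase gene Kdm3a (-0.44), and Anln (-0.95), a cleavage furrow protein that is also on the G2 and M phase list.

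**Figure D2:**
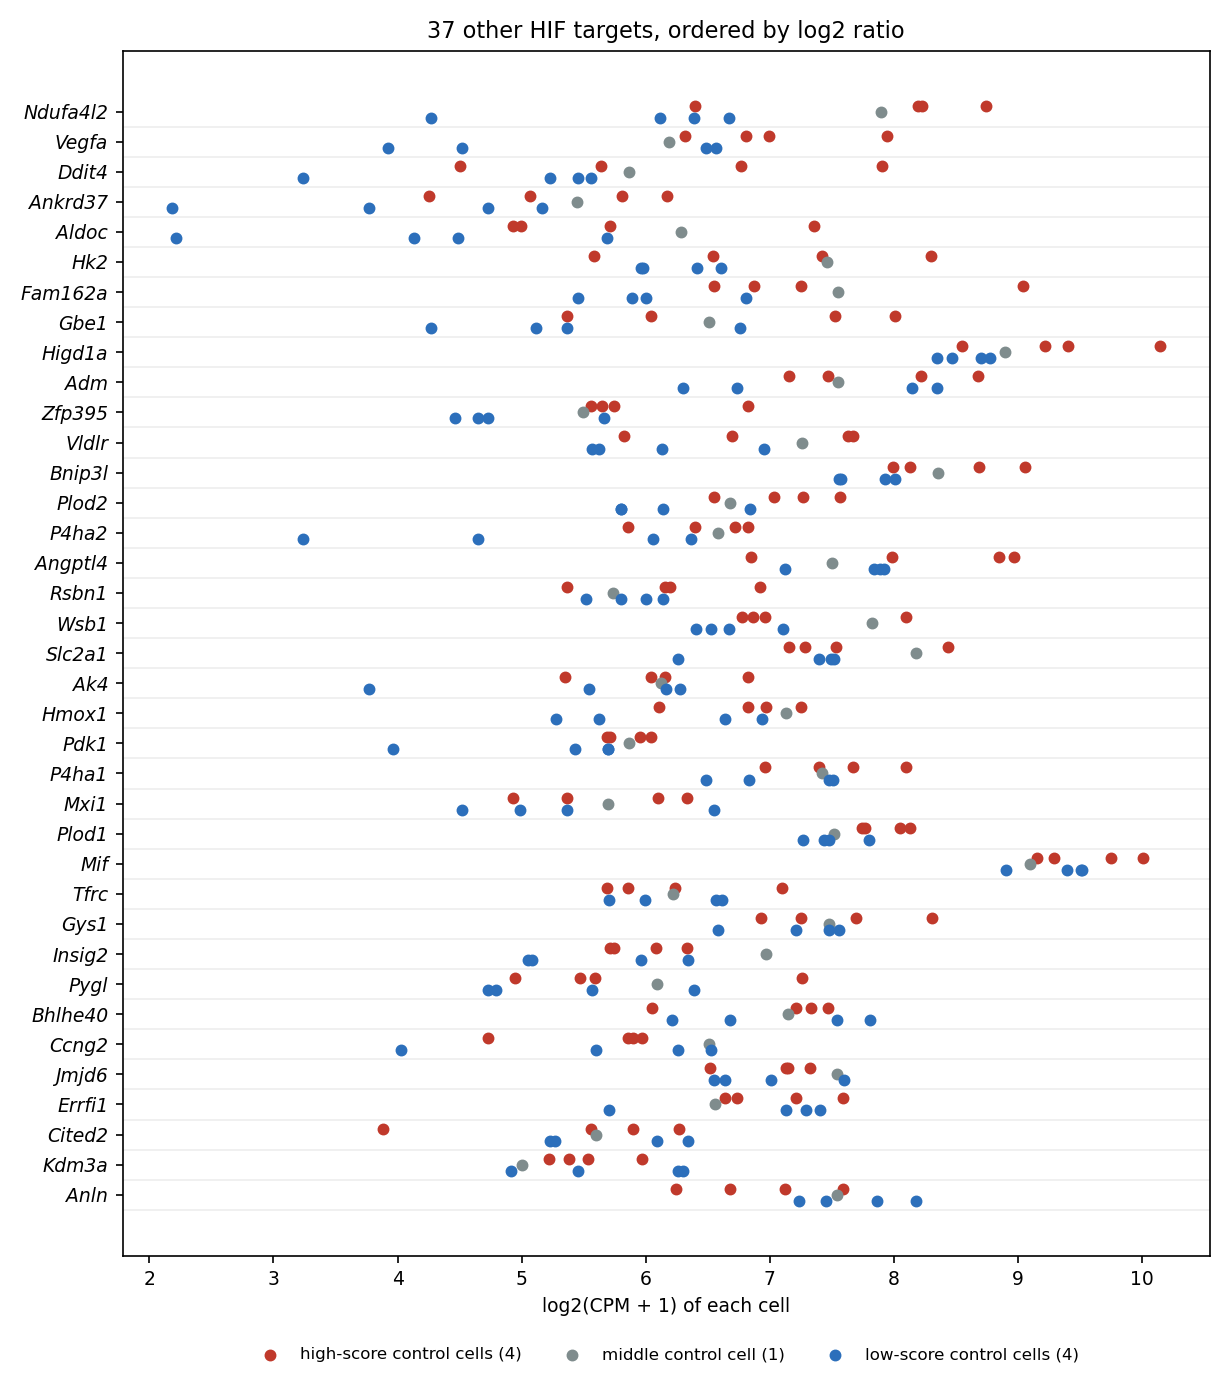
Level of each of 37 HIF targets in each control cell (horizontal axis, log2(CPM + 1)), with high-score cells above low-score cells in each row and genes ordered by log2 ratio from Ndufa4l2 (2.00) at the top to Anln (-0.95) at the bottom. High-score and low-score cells overlap in every row.

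The oxygen sensing machinery itself was mixed. Of 13 measured genes of the pathway (18 listed), 8 had a log2 ratio above 0, beside 45.6% of all genes. The median was 0.27, which was 0.12 without control cell 3 and 0.41 without control cell 4. Egln1, the main hydroxylase that marks HIF alpha subunits for destruction and itself a HIF target, was 97.7, 61.0, 40.6 and 27.8 CPM in high-score cells, against 26.0, 16.1, 12.6 and 21.9 CPM in low-score cells (log2 ratio 1.38, interval 0.80 to 1.98). Its groups did not overlap, in the order of the scores among the high-score cells, and no other gene overlaps it on chromosome 8 (124908587 to 124949324, minus strand). Arnt, the constant partner, had a ratio of 1.10 that came from 157 CPM in control cell 3, and without that cell the ratio was 0.05. Hif1a was 177, 454, 238 and 275 CPM in high-score cells, against 252, 260, 307 and 222 CPM in low-score cells (0.27, interval 0.08 to 0.46), and control cell 4 had the lowest level of all 8. Vhl was 37.4 to 57.9 CPM in high-score cells and 25.5 to 66.1 CPM in low-score cells (-0.22, interval -0.70 to 0.24).

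Glycolysis, the pathway from glucose to lactate, was higher in most of its members by less than 2-fold. Of 20 measured genes (23 listed, of which Aldoc, Hk2, Pdk1 and Slc2a1 are also among the HIF targets), 18 had a log2 ratio above 0, beside 45.6% of all genes, with a median of 0.41. At least 2-fold higher were 3 genes, beside 4.39% of all genes, and 2 did not overlap, beside 1.8%. The summed level was 11718, 8796, 10111 and 9014 CPM in high-score cells, against 6271, 8951, 8627 and 8853 CPM in low-score cells, so that control cell 3 lay below control cells 8 and 7. Slc16a1, a lactate transporter of the plasma membrane, was 101, 305, 108 and 108 CPM in high-score cells, against 56.7, 85.7, 71.5 and 94.8 CPM in low-score cells (1.30, interval 0.98 to 1.62). Its groups did not overlap, though 3 of the high-score cells lay just above control cell 7, and without control cell 3 the ratio was 0.58. Hk2, the inducible hexokinase whose promoter is printed above, was 47.1, 315, 92.1 and 170 CPM in high-score cells, against 61.4, 96.4, 84.2 and 62.0 CPM in low-score cells (1.30, interval 0.98 to 1.62), so that control cell 4 lay below all low-score cells. Aldoc was 163, 29.5, 51.5 and 30.9 CPM in high-score cells, against 16.5, 21.4, 50.5 and 3.65 CPM in low-score cells (1.58, interval 1.0 to 2.18). Abundant enzymes were lowest in the deepest cell, as Gapdh shows with 1531, 978, 1338 and 1202 CPM in high-score cells, against 644, 1122, 1191 and 1119 CPM in low-score cells, the 644 being control cell 9. Gapdh was chosen after its values were seen, and it has near-identical copies in the genome. Without control cell 9 the median of the glycolysis list was 0.26. Glycogen genes had 10 of 12 ratios above 0, beside the same 45.6%. Their median of 0.27 was 0.09 without control cell 4 and 0.68 without control cell 9. The widest ratio was that of Gbe1, the branching enzyme and also a HIF target, with 257, 183, 65.0 and 40.2 CPM in high-score cells, against 107, 40.2, 33.7 and 18.2 CPM in low-score cells (0.99, interval 0.65 to 1.33).

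Genes for mitosis showed the opposite pattern and the widest shift of the 24 gene lists. All 38 genes of the G2 and M phase list were measured, and all 38 had a log2 ratio below 0, beside 54.4% of all genes. Their median was -1.0, and 19 were at least 2-fold lower in high-score cells, beside 4.69% of all genes. Of the list 3 genes (Kif11, Ttk and Smc4) did not overlap, which is 7.89% beside 1.77% of all genes. The summed level was 2136, 3118, 6797 and 8684 CPM in control cells 4, 3, 10 and 2, against 10663, 5775, 9927 and 9776 CPM in control cells 9, 8, 6 and 7. The groups overlapped, since control cell 8 lay below control cells 10 and 2. The shift was therefore mostly that of the 2 cells with the highest scores. The median was -0.69 without control cell 3 and -0.69 without control cell 9, with 7 and 9 genes at least 2-fold lower, and without control cell 4 it was -0.83 with 11 genes. All 38 ratios stayed below 0 without any 1 cell except control cell 9, without which 34 did.

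Plk1, the kinase that drives entry into and passage through mitosis, was 14.5, 7.87, 100 and 204 CPM in high-score cells, against 303, 93.7, 248 and 306 CPM in low-score cells (log2 ratio -1.74, interval -2.06 to -1.44). Kif11, the motor that pushes spindle poles apart, was 21.7, 1.97, 37.9 and 92.7 CPM in high-score cells, against 177, 96.4, 139 and 106 CPM in low-score cells (-2.05, interval -2.52 to -1.61). Nusap1, a spindle protein, was 7.24, 7.87, 65.0 and 127 CPM in high-score cells, against 198, 50.9, 210 and 117 CPM in low-score cells (-1.69, interval -2.09 to -1.31). In all 3 genes control cells 4 and 3 were the lowest of the 8, and Kif11 alone of them did not overlap. Kif11 overlaps 1 gene model on each strand of chromosome 19 (37376403 to 37421859, plus strand).

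Genes of S phase had 20 of 33 ratios above 0, beside 45.6% of all genes. Their median was 0.11, which depended on single cells. It was 0.55 without control cell 8, with 25 ratios above 0 and 7 genes at least 2-fold higher, and -0.01 without control cell 10 or without control cell 7. Control cell 8 had the highest summed level of the list among the control cells, at 4968 CPM. Cdt1, which licenses replication origins before S phase, was 101, 78.7, 86.7 and 30.9 CPM in high-score cells, against 14.2, 53.6, 0 and 32.8 CPM in low-score cells (1.65, interval 1.12 to 2.21). Mcm4, a subunit of the replicative helicase, was 119, 163, 65.0 and 55.6 CPM in high-score cells, against 52.0, 69.6, 16.8 and 47.4 CPM in low-score cells (1.09, interval 0.70 to 1.48). Rfc4, a subunit of the clamp loader, was lower without overlap, with 50.7, 59.0, 73.1 and 86.5 CPM in high-score cells, against 192, 190, 101 and 139 CPM in low-score cells (-1.35, interval -1.69 to -1.02). The gene Eif4a2 overlaps Rfc4 on the opposite strand, and with strand use not given, reads from the shared stretch may belong to either. The p53 target Cdkn1a, which blocks cyclin-dependent kinases, was 159, 331, 271 and 235 CPM in high-score cells, against 111, 201, 105 and 106 CPM in low-score cells (1.03, interval 0.79 to 1.27), with control cells 4 and 8 in overlap. RNA of mitosis genes thus moved with the score in these cells, and its part in the other differences was not tested.

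**Figure D3:**
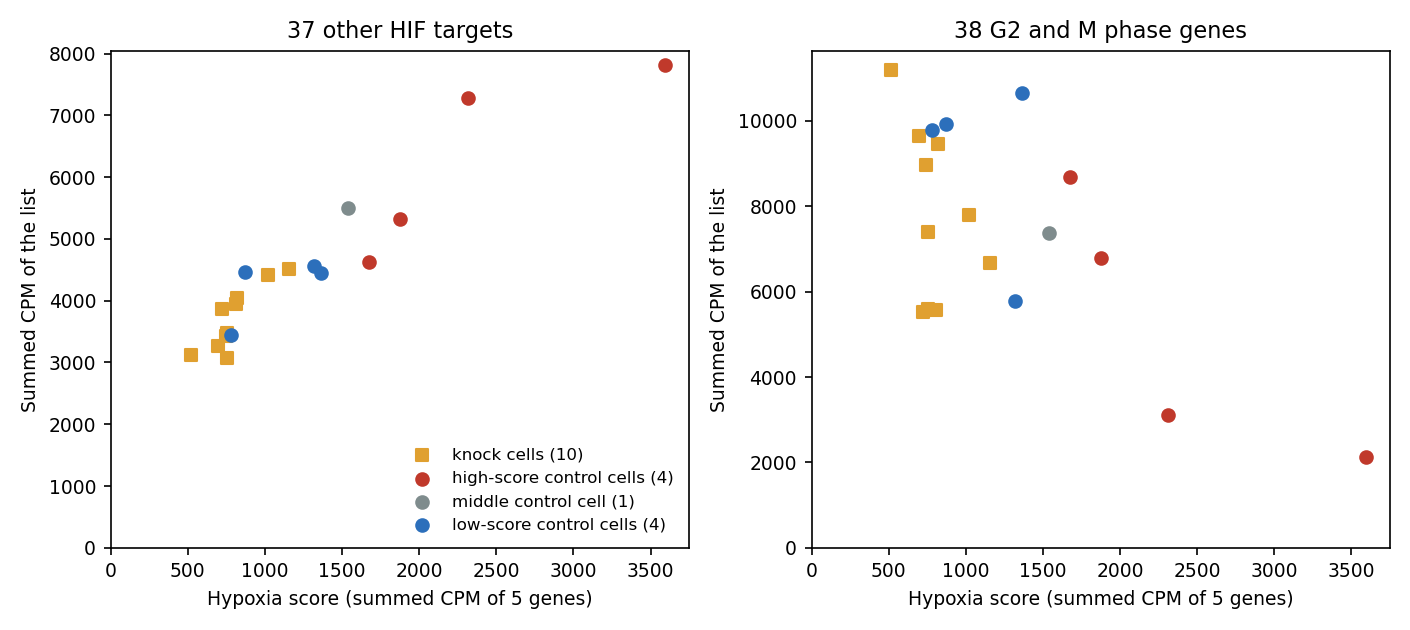
Summed level of 37 HIF targets (left panel) and of 38 G2 and M phase genes (right panel) against the hypoxia score, both in CPM, for 10 knock cells (squares) and 4 high-score, 1 middle and 4 low-score control cells (circles). HIF targets run along the score in control cells up to 7809 CPM, and G2 and M phase genes are lowest, at 2136 CPM, in the cell with the highest score.

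Synthesis of cholesterol was lower in most members. Of 21 measured genes, 18 had a log2 ratio below 0, beside 54.4% of all genes, with a median of -0.50. At least 2-fold lower were 4 genes, beside 4.69% of all genes, and without control cell 3 only 1 was. The summed levels of the list overlapped, with 2889 to 3664 CPM in high-score cells and 3174 to 4751 CPM in low-score cells. Idi1, an isomerase of the isoprenoid pathway, was 21.7, 11.8, 21.7 and 40.2 CPM in high-score cells, against 128, 45.5, 42.1 and 25.5 CPM in low-score cells (-1.88, interval -2.47 to -1.32). Mvk, the mevalonate kinase, was 50.7, 19.7, 67.7 and 55.6 CPM in high-score cells, against 117, 75.0, 71.5 and 98.5 CPM in low-score cells (-1.12, interval -1.55 to -0.71), without overlap. Control cell 9 was the highest low-score cell in both, and without it the list's median was -0.22, with 15 genes below 0 and none at least 2-fold lower. Fatty acid synthesis had 10 of 12 ratios below 0, with a median of -0.34 that was -0.10 without control cell 9, with 8 below 0. Its sums also overlapped, with 2117 to 2494 CPM in high-score cells and 1995 to 2666 CPM in low-score cells. Me1, the malic enzyme that supplies NADPH, was 369, 232, 198 and 204 CPM in high-score cells, against 187, 80.4, 71.5 and 102 CPM in low-score cells (0.85, interval 0.61 to 1.10), also without overlap.

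Genes of autophagy and mitophagy had a median of 0.14, with 14 of 22 ratios above 0, beside 45.6% of all genes. Without control cell 9 it was 0.46, with 17 above 0, and without control cell 8 it was 0.05, with 12. Of the 22 genes 3 did not overlap, which is 13.6% of the list beside 1.8% of all genes. They were Optn, an autophagy receptor, with 83.3, 29.5, 32.5 and 34.0 CPM in high-score cells, against 17.7, 13.4, 25.2 and 14.6 CPM in low-score cells (1.25, interval 0.60 to 1.93), and Sqstm1 and Wipi2. Optn passed the limit of 20 CPM only through the high-score cells. Sqstm1, which carries ubiquitinated cargo to the autophagosome, was 518, 746, 550 and 683 CPM in high-score cells, against 446, 501, 307 and 408 CPM in low-score cells. The Spearman correlation of the list's sum with the score was 0.07 over the 10 knock cells and 0.95 over the 9 control cells, in each case cells of 1 library that differ in depth.

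Of the immediate early genes 13 of 18 ratios lay above 0, beside 45.6% of all genes, the share to set beside each list of this paragraph. Their median of 0.38 ranged over 0.29 to 0.54 without any 1 cell. At least 2-fold higher were 5, beside 4.39% of all genes, among them the phosphatase gene Dusp1 (1.33), Ier3 (1.26) and the AP-1 component Fosl2 (1.20). Without control cell 9 only 1 of the 18 was. Of 13 p53 targets 9 lay above 0, with a median of 0.35 that was 0.62 without control cell 9 and 0.19 without control cell 7. Lists with medians closer to that of all genes were the integrated stress response with 18 of 27 ratios above 0 (0.13), redox genes with 25 of 30 (0.12) and nuclear genes of oxidative phosphorylation with 49 of 70 (0.10). Slc7a11, the cystine importer, was 116, 163, 35.2 and 37.1 CPM in high-score cells, against 36.6, 21.4, 21.0 and 51.1 CPM in low-score cells (1.5, interval 1.05 to 1.97), which again set control cells 4 and 3 apart. Gsta4, a glutathione transferase, was 344, 150, 233 and 235 CPM in high-score cells, against 141, 115, 75.7 and 25.5 CPM in low-score cells (1.06, interval 0.80 to 1.33), without overlap. For oxidative phosphorylation the median was -0.14 without control cell 9. Mitochondrially encoded genes had 8 of 12 ratios above 0 and a median of 0.27, which was -0.13 without control cell 9. The medians of the TCA cycle (-0.04), collagen and matrix (-0.01), heat shock (0.01), iron (0.04) and endoplasmic reticulum chaperones (0.04) lay close to that of all genes. Those of the actin and YAP list (0.14), the cytokines (0.24), translation and mTOR (-0.19) and the BCL2 family (-0.16) lay further from it. Leaving out 1 cell moved many of these small medians to the other side of 0, with ranges of -0.06 to 0.39 for the cytokines and -0.23 to 0.10 for the BCL2 family.

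**Figure D4:**
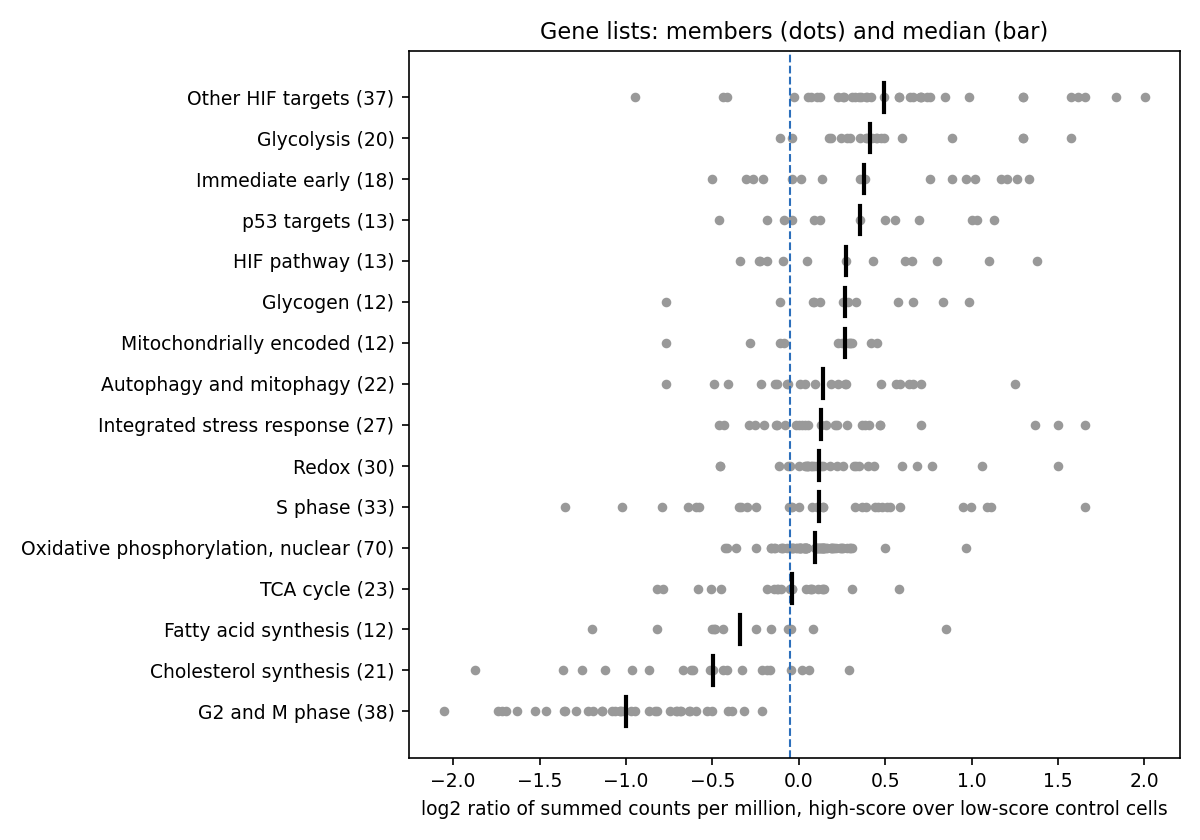
Log2 ratio of high-score over low-score control cells (horizontal axis) for the measured members of 16 gene lists (dots), with the median of each list as a bar and the median of all genes at 20 CPM or more (-0.05) as a dashed line. The list of other HIF targets has the highest median (0.50) and the G2 and M phase list the lowest (-1.0).

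Of the markers of other cell types, Cd68, a lysosomal protein used to mark macrophages, was 163, 17.7, 56.9 and 117 CPM in high-score cells, against 8.27, 2.68, 0 and 25.5 CPM in low-score cells (log2 ratio 3.14, interval 2.36 to 4.03). Of 7 leukocyte markers it alone averaged 20 CPM or more, a limit it passed only through the high-score cells. Cd68 was named after its values were seen. Tyrobp was at 0 in all 9 cells, Ptprc and Adgre1 have no row, and Csf1r was 3.09 to 16.2 CPM in high-score cells and 7.29 to 21.0 CPM in low-score cells.

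Over all 5358 genes that averaged at least 50 CPM, 105 were at least 2-fold higher in high-score cells (1.96%) and 138 at least 2-fold lower (2.58%), so that 43.2% of those apart were higher. That split depended on the weight of control cell 9. With each cell given equal weight it was 85 higher and 71 lower (54.5% higher), and without control cell 9 it was 150 and 57 (72.5%). With TMM factors it was 119 and 111 (51.7%), and with median-of-ratios factors 128 and 102 (55.7%). No overlap between the groups was found for 70 genes in the higher direction (1.31%) and for 108 in the lower (2.02%).

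Genes that were apart by 2-fold, without overlap and also without any 1 of the 8 cells numbered 5 in the higher direction and 7 in the lower. Those higher were Krcc1, a lysine-rich coiled-coil protein (1.74), Ncoa3, a coactivator of nuclear receptors (1.52), Slc50a1, a sugar transporter (1.49), Metrnl, a secreted factor (1.34), and Abl2, a tyrosine kinase that acts on the cytoskeleton (1.22). Krcc1 was 170, 116, 83.9 and 86.5 CPM in high-score cells, against 21.3, 42.9, 80.0 and 18.2 CPM in low-score cells. Metrnl was 94.1, 70.8, 81.2 and 55.6 CPM in high-score cells, against 26.0, 37.5, 33.7 and 25.5 CPM in low-score cells, a wider gap than that of Krcc1.

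Those lower were led by genes of dividing cells, namely Kif2c (-2.31), a motor that removes tubulin from spindle microtubules, Ccnf (-2.12), a cyclin-like part of a ubiquitin ligase, and Kif11, followed by Prkrip1 (-1.65), Rfc4, Smarcc2 (-1.31), a subunit of the SWI/SNF chromatin remodeller, and Lztfl1 (-1.11), which regulates transport to cilia. Kif2c was 18.1, 3.93, 37.9 and 58.7 CPM in high-score cells, against 190, 58.9, 96.8 and 98.5 CPM in low-score cells. Ccnf was 21.7, 9.84, 59.6 and 64.9 CPM in high-score cells, against 226, 102, 92.6 and 91.2 CPM in low-score cells. Smarcc2 was 36.2, 17.7, 37.9 and 34.0 CPM in high-score cells, against 86.2, 64.3, 58.9 and 62.0 CPM in low-score cells. In Kif2c the highest high-score cell and the lowest low-score cell all but touched, whereas Smarcc2 and Ccnf left a gap.

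**Figure D5:**
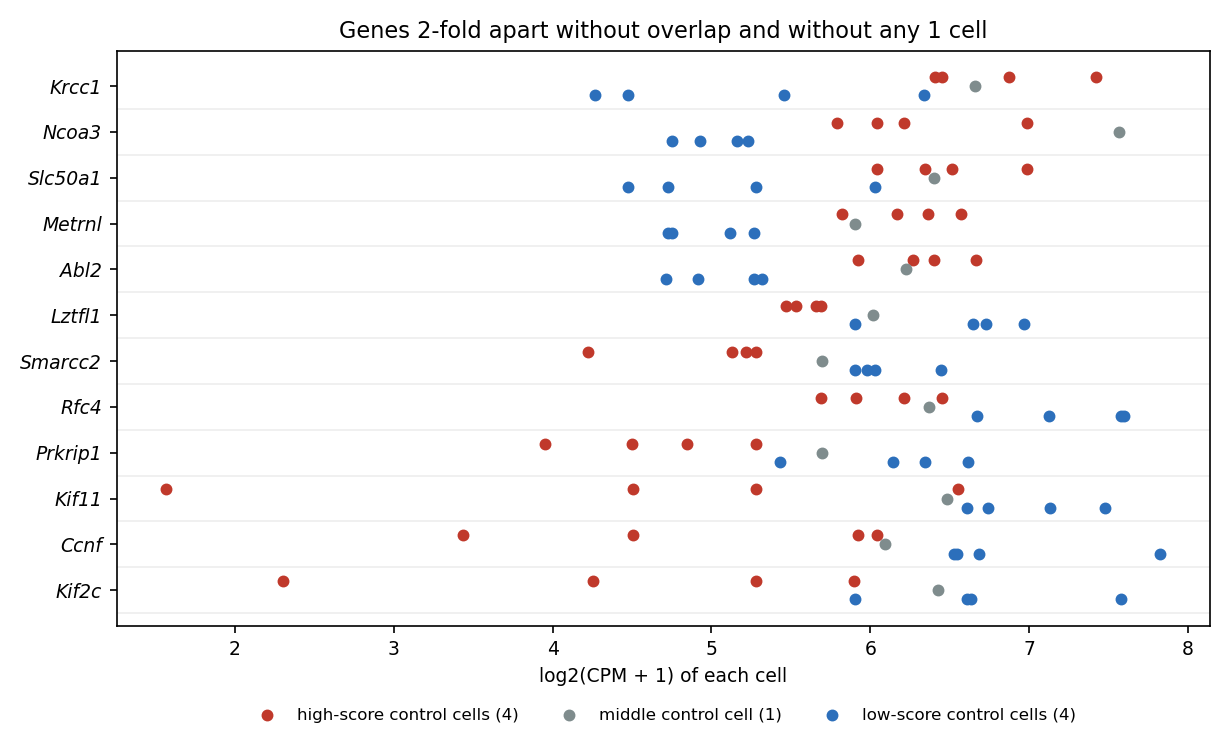
Level in each control cell (horizontal axis, log2(CPM + 1)) of the 5 genes higher and the 7 genes lower in high-score cells by at least 2-fold, without overlap and without any 1 cell. Gene models without a usual symbol were left out. High-score cells lie above low-score cells in each row, the middle cell is grey, and the gap between groups is narrow in Krcc1 and Kif2c.

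The knock cells lay at the low end of the score. Their scores were 518 to 1155 CPM with a median of 757 CPM, against 780 to 3595 CPM in the 9 control cells. All 10 were below the lowest high-score control cell, 4 were within the range of the low-score control cells and 6 were below the lowest control cell. The same 10 of 10 lay below the lowest high-score cell after thinning, after correction for UMI collisions, with the mean of log2 levels as the score and with any 1 score gene left out. The columns named knock and control differ in the knockdown and belong to 1 sample, so the knockdown and any other difference between the 2 sets of cells cannot be told apart here. Summed HIF targets were 3073 to 4516 CPM in knock cells and 3438 to 7809 CPM in the 9 control cells.

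The knock cells did not enter the choice of the 8 cells, and among them the HIF targets again followed the score, over a range of about 2-fold. The Spearman correlation of the summed HIF targets with the score was 0.83 over 10 knock cells and 0.90 over 9 control cells, as a description of cells that share a library and differ in depth. With Egln3 left out of the score the correlation in the knock cells was 0.61. Vegfa was 118, 79.8 and 70.6 CPM in knock cells 9, 8 and 1, which had the highest scores, and 22.6 to 43.5 CPM in the other 7. Gbe1 had the same correlation with the score as Vegfa (0.83), and was 20.2, 39.2, 17.1 and 42.1 CPM in knock cells 1, 9, 8 and 10, the 4 with the highest scores, and 8.85 to 17.3 CPM in the other 6. Ndufa4l2 was 283 CPM in knock cell 1, the cell with the highest score, and 12.9 to 79.1 CPM in the other 9. Single targets did not all follow the score. Ankrd37, Mxi1 and Kdm3a were at 0 in knock cell 1, and Pdk1 was at 0 in knock cell 9. Knock cells 1 and 9 were the shallowest, with 198200 and 153051 counts. Levels of scarce genes there rest on few counts, those of Gbe1 included. The Spearman correlation of score with total counts was -0.26 over the 10 knock cells. The correlation of G2 and M phase genes with the score was -0.35 in knock cells and -0.72 in control cells; the sum was 5532 to 11190 CPM in knock cells, so no knock cell had as few of these transcripts as control cells 4 and 3. Glycolysis had 0.47 in knock cells and 0.48 in control cells. Glycogen had -0.24 in knock cells and 0.73 in control cells, and p53 targets had -0.58 in knock cells and 0.22 in control cells. Cholesterol synthesis had 0.41 in knock cells and -0.40 in control cells, and fatty acid synthesis had 0.35 in knock cells and 0.12 in control cells. The differences between these pairs of correlations were not tested.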

How the data were processed

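For the CBTi-seq sample the authors deposited unnormalized counts of 20716 genes in a table whose name refers to UMIs; that the values are counts is read from the whole numbers in the table itself. The tables of the other 2 samples were not used here. The submitters' processing notes name STAR 2.7.11b, Picard and FastQC and, with no roles, the builds GRCh38 and GRCm38. The sources used here do not give the counting tool, its use of strand or its annotation.

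Cells with ranks by the score were compared as described with the results. Counts were summed over the 4 cells of a group and scaled to CPM of all gene counts; log2 ratios have exact conditional 95% intervals and cover counting error only. PCR and the columns' shared source are not covered. Genes were described by size, if they averaged at least 50 CPM, or 20 CPM for members of lists. The average is that of the high and low groups, so a gene can pass through a single group, as Cd68, Ankrd37 and Optn did. The cells, the 24 gene lists, the 8 marker lists and the rules were chosen with earlier results of these data known. Named were Rrm2 and Hif1a, in each direction up to 12 genes that were at least 2-fold apart without overlap and without any 1 cell, in each list up to 4 members of widest ratio, and any measured HIF target or pathway gene; other names were chosen after their values were seen, among them Gapdh, Cd68, Ttk, Smc4, Sqstm1, Wipi2, Des and Fabp4. Gene models without a usual symbol, and symbols turned into dates, were left out of the up to 12 genes per direction. Gene positions are from GENCODE vM21 (GRCm38), 1-based, and promoters from RefSeq. Overlaps with other genes are stated with the results for some genes only. Other named genes also overlap a gene on the opposite strand, among them Ankrd37 (Lrp2bp and Ufsp2), Fam162a (Wdr5b) and Ncoa3 (Sulf2). Alternatives were equal weight per cell, thinning to 237639 counts, median-of-ratios factors (DESeq2 1.42.0), TMM factors (edgeR 4.0.16), totals that leave out mitochondrial and ribosomal protein genes, a correction for UMI collisions, other level limits, other scores and other cells. The script was checked on simulated counts. These held counting error and no other spread between the cells of a group, so calls of no overlap and the leaving out of cells were not checked. Other software was Python 3.11.15 with scipy 1.17.1, pandas 2.3.3, numpy 2.4.6 and matplotlib 3.10.9, and R 4.3.3.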

Additional observations from a re-analysis of the deposited data

Results flagged for a closer look

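The summed levels of the gene lists were searched for a cell far from the others of its group, in 87 sets of cells, of which 5 held such a cell. Chance alone would give such a cell in about 1 in 20 sets of independent random draws. These sets share cells and some were split by the score, so that rate is only a rough guide. Summed HIF targets in the low-score cells were lowest in control cell 7, which also had the lowest score, with 3438 CPM, while the other 3 lay between 4443 and 4564 CPM. Summed glycolysis genes in the low-score cells were lowest in control cell 9, the deepest cell, with 6271 CPM, while the other 3 lay between 8627 and 8951 CPM. Summed genes of fatty acid synthesis in the high-score cells were highest in control cell 4 with 2494 CPM, while the other 3 lay between 2117 and 2166 CPM. Among the knock cells, summed glycogen genes were highest in knock cell 10, the deepest of them, with 1148 CPM, while the other 9 lay between 699 and 922 CPM. Summed genes of the BCL2 family were lowest in knock cell 8 with 1366 CPM, while the other 9 lay between 1616 and 1903 CPM.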

How the results depend on the processing

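No paired analysis was possible because the column numbers only name cells of 1 sample that were split by a score, with no test. The alternatives for the score of the knock cells were chosen after seeing the data. The 105 genes at least 2-fold higher in high-score cells were 373, 30 and 3888 with level limits of 20 CPM, 100 CPM and none, 240 with 3 cells against 3, 164 with Egln3 left out of the score, 164 with control cell 1 kept, and 52 to 188 without any 1 cell (52 without control cell 3, 169 without control cell 2, 188 without control cell 10). The 138 at least 2-fold lower were 71 with equal weight per cell, 85 after thinning, 398, 36 and 3436 with those limits, 216 with control cell 1, and 57 to 210 without any 1 cell (57 without control cell 9, 208 without control cell 8, 210 without control cell 10). The 70 genes higher without overlap were 53 after thinning, and 153, 34 and 246 with those limits. They were 280 with 3 cells against 3, 37 with control cell 1 and 112 to 185 without any 1 cell. The 108 lower without overlap were 75 after thinning, 56 with the 100 CPM limit and 237 with none. They were 322 with 3 cells against 3, 192 with control cell 1 and 144 to 263 without any 1 cell. Fewer cells leave fewer chances to overlap. The correlation of HIF targets with the score in knock cells was 0.61 without Egln3 in the score. Of 3146 values of named genes under the alternatives, 3089 kept the sign of the ratio, and 1 turned past its spread, the log2 ratio of Cxcl1 (1.29), which was -0.18 without control cell 10 and at most 1.98, without control cell 7. Of 550 list medians 499 kept their sign. No scaling moved the median of all genes by more than 0.07 on the log2 scale. Levels near 20 CPM rest on few counts per cell.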
